A study of Mus musculus with 8 samples.

Results

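The regions described here are stretches of open chromatin in BV2 mouse microglial cells that held one of the 9910 highest-ranked peaks in every normoxic library and in at most 1 of the hypoxic ones. They were chosen by rank. In each of 8 peak lists the 9910 peaks with the highest −log10 p were called the top (9910 is the length of the shortest list, monoculture normoxia replicate 2, where being in the top means only that a peak was called), and peaks of all lists that overlapped were merged into 40770 regions on chromosomes 1 to 19 and X. A region was kept when it held a top peak in all 4 normoxic lists and in at most 1 of the 4 hypoxic lists, which left 444 regions, or 1.09% of all. Every rank in the oxygen comparison was therefore used to choose them, and the ranks below are a description that carries no test.

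BV2 cells, an immortalised line of microglia, were cultured alone (monoculture) or together with GL261 mouse glioma cells that had been seeded first (co-culture). Both cultures were kept for 16 h at 21% oxygen (normoxia) or below 0.1% oxygen (hypoxia), with 2 biological replicates in each of the 4 groups: monoculture normoxia, monoculture hypoxia, co-culture normoxia and co-culture hypoxia. Cells were fixed with formaldehyde before they left hypoxia and sorted by CD45 or GFP, and the labels do not say which marker served for which library. Open DNA was then tagged with the Tn5 transposase and sequenced (ATAC-seq).

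A promoter is usually open because transcription factors hold nucleosomes off the DNA just before the start of the gene. Some of these factors are known from many promoters of housekeeping genes: NF-Y binds the CCAAT box, the SP and KLF families bind GC boxes, and ETS factors such as GABP and ELF bind a core of GGAA. In macrophages and microglia, the ETS factor PU.1 also opens distal enhancers. Low oxygen stabilises the HIF factors, which raise transcription of glycolytic and other genes, while cell division and protein synthesis slow down.

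The promoters of the leading regions are printed first, since the results turn on their short motifs. Each line runs 5′ to 3′ and ends at the base before the annotated start of the gene (RefSeq, GRCm38.p6). Capitals mark the ETS motif CCGGAAG, the NF-Y box CCAAT, the cAMP response element TGACGTCA, the IRF motif and the PU.1 motif GAGGAAGT, on either strand, and a line without capitals holds none of them. The 4 regions with a matched start and the best ranks were at Prpf6 (chr2:181601069-181601318 (+ strand)), Dph6 (chr2:114654965-114655214 (- strand)), Mettl25 (chr10:105841381-105841630 (- strand)) and Cenpw (chr10:30200541-30200790 (- strand)), shown with 250 bases each.
Prpf6: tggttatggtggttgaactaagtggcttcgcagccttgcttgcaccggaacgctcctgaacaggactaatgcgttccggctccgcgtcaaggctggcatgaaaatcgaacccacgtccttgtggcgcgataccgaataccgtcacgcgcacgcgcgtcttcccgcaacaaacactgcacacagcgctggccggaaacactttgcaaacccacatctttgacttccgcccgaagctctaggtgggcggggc
Dph6: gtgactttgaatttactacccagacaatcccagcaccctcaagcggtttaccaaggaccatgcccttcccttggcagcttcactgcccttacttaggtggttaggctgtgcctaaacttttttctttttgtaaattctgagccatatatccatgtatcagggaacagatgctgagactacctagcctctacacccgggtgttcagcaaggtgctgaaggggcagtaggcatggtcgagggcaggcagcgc
Mettl25: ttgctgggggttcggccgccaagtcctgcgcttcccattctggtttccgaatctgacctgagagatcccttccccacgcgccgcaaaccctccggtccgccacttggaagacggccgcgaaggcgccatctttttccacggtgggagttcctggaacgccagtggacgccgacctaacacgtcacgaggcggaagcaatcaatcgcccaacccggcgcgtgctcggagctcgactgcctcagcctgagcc
Cenpw: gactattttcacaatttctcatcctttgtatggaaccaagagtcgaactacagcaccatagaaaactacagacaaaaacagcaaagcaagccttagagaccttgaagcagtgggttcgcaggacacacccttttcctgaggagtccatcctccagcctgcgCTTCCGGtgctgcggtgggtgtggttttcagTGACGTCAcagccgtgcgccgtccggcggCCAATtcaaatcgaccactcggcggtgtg
Of these 4, only the Cenpw promoter held a marked motif before the start, with 1 ETS motif, 1 cAMP response element and 1 CCAAT box in a row. Prpf6 and Mettl25 each had 1 ETS motif that reached into the 50 bases after the start, which are not printed, and Dph6 had none.

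The next 5 regions were chosen, after the motif counts were seen, for an ETS motif in the last 120 bases before the start. They are examples, and the place of the motif in them follows from that choice. They were at Trappc6b (chr12:59061473-59061592 (- strand)), Dzip3 (chr16:48994113-48994232 (- strand)), Pyroxd1 (chr6:142345577-142345696 (+ strand)), Wdr5b (chr16:36041070-36041189 (+ strand)) and Rbm34 (chr8:126971050-126971169 (- strand)), and the 2 that follow, Tbck (chr3:132684024-132684143 (+ strand)) and Tmem251 (chr12:102743599-102743718 (+ strand)), have a cAMP response element.
Trappc6b: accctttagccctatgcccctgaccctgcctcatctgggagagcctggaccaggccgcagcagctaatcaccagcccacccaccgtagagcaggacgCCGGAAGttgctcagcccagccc
Dzip3: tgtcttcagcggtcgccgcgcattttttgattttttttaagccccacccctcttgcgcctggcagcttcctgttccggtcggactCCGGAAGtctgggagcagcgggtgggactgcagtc
Pyroxd1: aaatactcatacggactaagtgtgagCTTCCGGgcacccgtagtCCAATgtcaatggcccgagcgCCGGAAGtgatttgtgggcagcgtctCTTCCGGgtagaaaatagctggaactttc
Wdr5b: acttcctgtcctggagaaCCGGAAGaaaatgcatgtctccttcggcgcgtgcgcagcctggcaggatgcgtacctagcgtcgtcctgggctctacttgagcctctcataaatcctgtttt
Rbm34: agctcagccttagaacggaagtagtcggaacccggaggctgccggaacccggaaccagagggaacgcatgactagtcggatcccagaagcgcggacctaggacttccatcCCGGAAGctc
Tbck: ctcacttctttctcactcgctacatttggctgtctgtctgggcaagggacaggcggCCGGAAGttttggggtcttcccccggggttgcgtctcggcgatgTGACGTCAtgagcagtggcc
Tmem251: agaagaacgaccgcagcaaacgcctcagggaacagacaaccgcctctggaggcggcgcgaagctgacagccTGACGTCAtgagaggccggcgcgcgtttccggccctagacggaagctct
The last 3 promoters were chosen for CCAAT boxes, so printing them beside the others is no comparison of the sets. They are the best-ranked with at least 2 such boxes among regions in the top of all 8 lists. Their genes are Sel1l (chr12:91849158-91849277 (- strand)), 4932412D23Rik (chr16:42875588-42875707 (- strand)) and Zfp386 (chr12:116047604-116047723 (+ strand)). None of the 3 printed stretches holds the ETS motif, and nothing is read from that.
Sel1l: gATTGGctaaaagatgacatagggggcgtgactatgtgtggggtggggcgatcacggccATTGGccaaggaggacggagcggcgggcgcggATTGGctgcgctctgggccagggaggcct
4932412D23Rik: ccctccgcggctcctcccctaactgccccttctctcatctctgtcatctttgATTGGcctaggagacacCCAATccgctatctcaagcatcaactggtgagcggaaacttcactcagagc
Zfp386: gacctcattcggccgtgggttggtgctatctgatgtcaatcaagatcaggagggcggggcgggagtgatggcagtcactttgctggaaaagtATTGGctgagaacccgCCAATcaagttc

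The 444 regions were 8.79% of the 5049 regions that held a top peak in all 4 normoxic lists. Of those 5049, 178 held a top peak in no hypoxic list, 266 in 1, 535 in 2, 653 in 3 and 3417 in all 4. The rule with oxygen levels exchanged (top in all 4 hypoxic lists and in at most 1 normoxic list) gave 459 regions, 1.13% of all and 8.65% of the 5309 in the top of all 4 hypoxic lists. Lists of equal number push these counts together, because a peak that enters the top displaces another. Without a library the rule loosens, and the count was 754 without monoculture hypoxia replicate 1, 771 without replicate 2 of that group and 687 without co-culture hypoxia replicate 2. The exchanged rule gave 787 and 755 without co-culture normoxia replicates 1 and 2, and 784 without co-culture hypoxia replicate 2. Taking the top 50% of each list in place of an equal number left 58 regions, and 958 under the exchanged rule.

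The lists held from 9910 to 13333 peaks in monoculture normoxia, from 21790 to 21826 in co-culture normoxia, from 24370 to 26339 in monoculture hypoxia and from 21633 to 29658 in co-culture hypoxia. They give no read counts, so the depth behind each value is unknown. The names of the peaks carry a code that reads V12 in all 4 normoxic lists and V22 in all 4 hypoxic lists. Its meaning is not given in the sources used here, and what it stands for cannot be told apart from oxygen. Of 30 microglia and macrophage marker genes, 6 to 7 had a peak within 1 kb of a gene end in monoculture normoxia and 13 to 15 in the other 6 lists. Ptprc, which encodes CD45, was among them in all 8 lists, whereas Spi1 had such a peak in 2 lists and Csf1r in none. Of 24 glial, glioma and stromal markers, none had one in the monoculture lists and 2 to 4 did in the co-culture lists, with Sox2 in 3 of them. None of those 24 genes had one of the 444 regions at an end.

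A rank of 1 is the highest −log10 p of a list. The median rank of the 444 regions was 6137.5 and 4841.5 in monoculture normoxia and 6560.5 and 5721.5 in co-culture normoxia. It was 13067.5 and 12744.5 in monoculture hypoxia and 14729.5 and 11617 in co-culture hypoxia. These hypoxic medians are over the 420, 426, 430 and 401 regions with a peak, in that order. All 4 normoxic medians lie above all 4 hypoxic ones, which follows from the rule. The 3417 regions in the top of all 8 lists, called stable below, had medians from 1964 to 2134 in normoxia and from 2226 to 2625 in hypoxia. In 311 of the 444 regions (70.0%), each hypoxic rank was worse than each normoxic rank, a list without a peak counting as last. This count follows in large part from the rule. The same share over all regions is not given on this scale, so nothing is read from it.

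**Figure D1:**
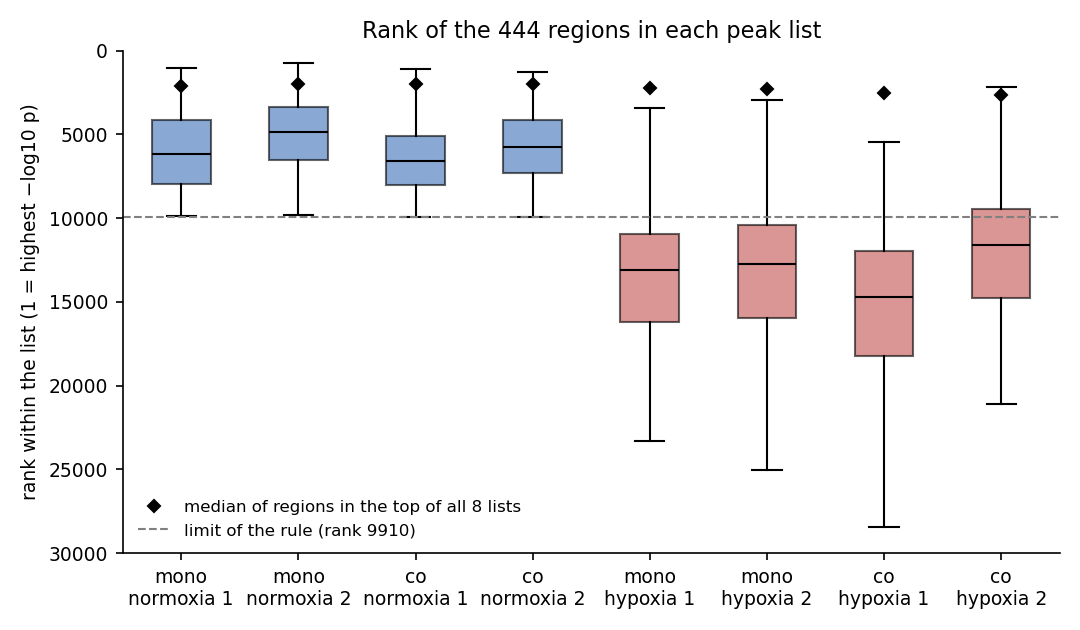
Rank of the 444 regions in each of the 8 lists (vertical axis, 1 at the top), with boxes for the middle 50%, lines for the median and whiskers to the extremes over regions with a peak. Blue boxes are normoxic and red boxes hypoxic libraries, the dashed line is rank 9910, and diamonds are the medians of the stable regions, which stay between 1964 and 2625 in all lists.

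Most of these regions kept a peak in hypoxia, at a lower rank. A peak remained at 376 of the 444 (84.7%) in all 4 hypoxic lists, at 47 in 3, at 14 in 2, at 4 in 1 and at 3 in none. By library, no peak was called at 24 and 18 regions in monoculture hypoxia and at 14 and 43 in co-culture hypoxia. Ranks from lists of different length do not by themselves show a change. To put them on 1 scale, the 6372 regions with a peak in all 8 lists were ranked against each other alone. The 376 regions then had median ranks of 4455, 4283.5, 4459 and 4102.5 in the normoxic lists (monoculture first) and of 5565.5, 5437, 5473.5 and 5220.5 in the hypoxic lists. This order rests on the same −log10 p that chose the regions, so the lower hypoxic medians follow from the rule and only their size is described. On this common scale 98 of the 376 (26.1%) ranked lower in each hypoxic than in each normoxic list, against 6.87% of all 6372 regions, and nothing is read from that difference for the same reason. The fold enrichment of the peaks, the authors' value over each library's own background, gave another picture in monoculture. Its median over the 444 regions was 6.66 and 5.57 in monoculture normoxia, where the medians of the whole lists were 6.69 and 5.67. Over the regions with a peak it was 6.38 and 6.69 in monoculture hypoxia, where the lists had 6.90 and 7.05. In co-culture it was 7.65 and 7.98 in normoxia (lists 6.75 and 6.69) and 7.11 and 6.76 in hypoxia (lists 7.39 and 7.24). The regions were thus near the list median in monoculture normoxia, above it in co-culture normoxia and below it in all 4 hypoxic lists, while the fold values of the 2 oxygen levels overlapped in monoculture. A lower rank in hypoxia is therefore a place relative to other peaks, and a change of the region itself and a rise of other peaks past it cannot be told apart from ranks. In cells sequenced in bulk, the share of cells with a region open and the openness per cell cannot be told apart either.

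Regions with and without a start site differed in their hypoxic ranks by culture. A start site lay inside 223 of the 444, and these had median ranks of 6668 and 5142 in monoculture normoxia, of 6752 and 4968 in co-culture normoxia, of 14576 and 14069 in monoculture hypoxia and of 14053 and 10726 in co-culture hypoxia. The 221 without a start had 5817 and 4577 in monoculture normoxia, 6452 and 6246 in co-culture normoxia, 12559 and 11756 in monoculture hypoxia and 16032 and 14451 in co-culture hypoxia. Regions with a start were thus placed lower in all 4 monoculture lists, at both oxygen levels, and in co-culture normoxia replicate 1. They were placed higher in co-culture normoxia replicate 2 and in both hypoxic co-culture lists. The 266 regions with a single hypoxic top peak had it in co-culture hypoxia replicate 2 in 117 cases, in monoculture hypoxia replicate 2 in 77, in monoculture hypoxia replicate 1 in 49 and in co-culture hypoxia replicate 1 in 23. Of the 117, 86 held a start, and of the 77, 19 did. The whole lists differ in the same way: the share of top regions with a start was 29.1% in monoculture hypoxia replicate 2 and 48.1% in co-culture hypoxia replicate 2, against 37.8% to 46.4% in normoxia, and its part in the split was not tested.

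At the 12 leading regions, those with the best worst rank over the normoxic lists, the genes had unlike roles. Coordinates are of the mm10 build, and where 4 normoxic or hypoxic ranks follow each other, the 2 monoculture replicates come first. The first was at the start of Prpf6, a splicing factor of the tri-snRNP (chromosome 2, 181600773 to 181601596). Its ranks were 2237 and 1609 in monoculture normoxia, 2719 and 2796 in co-culture normoxia, 12457 and 17029 in monoculture hypoxia, and 10262 and 4627 in co-culture hypoxia. Both monoculture ranks in hypoxia were far down the lists, while replicate 2 of hypoxic co-culture kept the region in its top.

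The second lay inside Nup160, which encodes a nuclear pore subunit (chromosome 2, 90678788 to 90679775), 1573 bp from the nearer gene end. It ranked 2234, 3560, 1282 and 2023 in the normoxic lists, 13653 and 13328 in monoculture hypoxia and 9995 and 8144 in co-culture hypoxia. The region at the start of Dph6, an enzyme of diphthamide synthesis (chromosome 2, 114653959 to 114655278), ranked 1669, 2155, 3610 and 2449 in normoxia, and 9163, 12598, 13318 and 11455 in hypoxia. Here the hypoxic ranks were close together and none overlapped with normoxia.

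Cenpw encodes a protein of the inner kinetochore, on which chromosomes are held to the spindle. The region at its start (chromosome 10, 30200214 to 30200915) ranked 3123, 4308, 3885 and 2159 in normoxia and 11119, 7868, 10912 and 10261 in hypoxia. Trappc6b encodes a subunit of the TRAPP complex, which tethers transport vesicles, and its region (chromosome 12, 59060554 to 59061576) ranked 2074, 1291, 4339 and 1777 in normoxia and 6177, 14641, 10206 and 13028 in hypoxia. At both starts the normoxic and hypoxic ranks did not overlap, and 1 monoculture hypoxia list kept the region in its top.

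The region shared by the starts of Mettl25 and Ccdc59 ranked from 2667 to 3968 in normoxia and from 9349 to 14244 in hypoxia. The one at an end of Tm2d1 ranked from 1549 to 3930 in normoxia, 4991 in monoculture hypoxia replicate 2 and from 13387 to 16506 in the other 3 hypoxic lists. The other leading regions lay away from gene ends. They were inside Mtus2, inside Ttc21b, which encodes a subunit of the machinery that moves cargo along cilia, inside the lectin-like receptor gene Klri1, inside Macrod2, which encodes an ADP-ribosyl hydrolase, and 10273 bp from Gm17655. At Mtus2, the 3 hypoxic ranks were 13521, 12107 and 8893, with no peak in co-culture hypoxia replicate 2. At Ttc21b, monoculture hypoxia replicate 2 gave 4710 and the other 3 hypoxic lists 10965, 21828 and 15407. At Klri1, monoculture hypoxia replicate 2 ranked the region at 3178, within its normoxic range of 2372 to 4372, while the other 3 hypoxic lists gave 9949, 14488 and 12609. At Macrod2, no peak was called in monoculture hypoxia replicate 1, replicate 2 gave 6406, and hypoxic co-culture gave 18317 and 13774. The Gm17655 region alone of the 12 was in the top of no hypoxic list, with hypoxic ranks from 10170 to 14986.

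**Figure D2:**
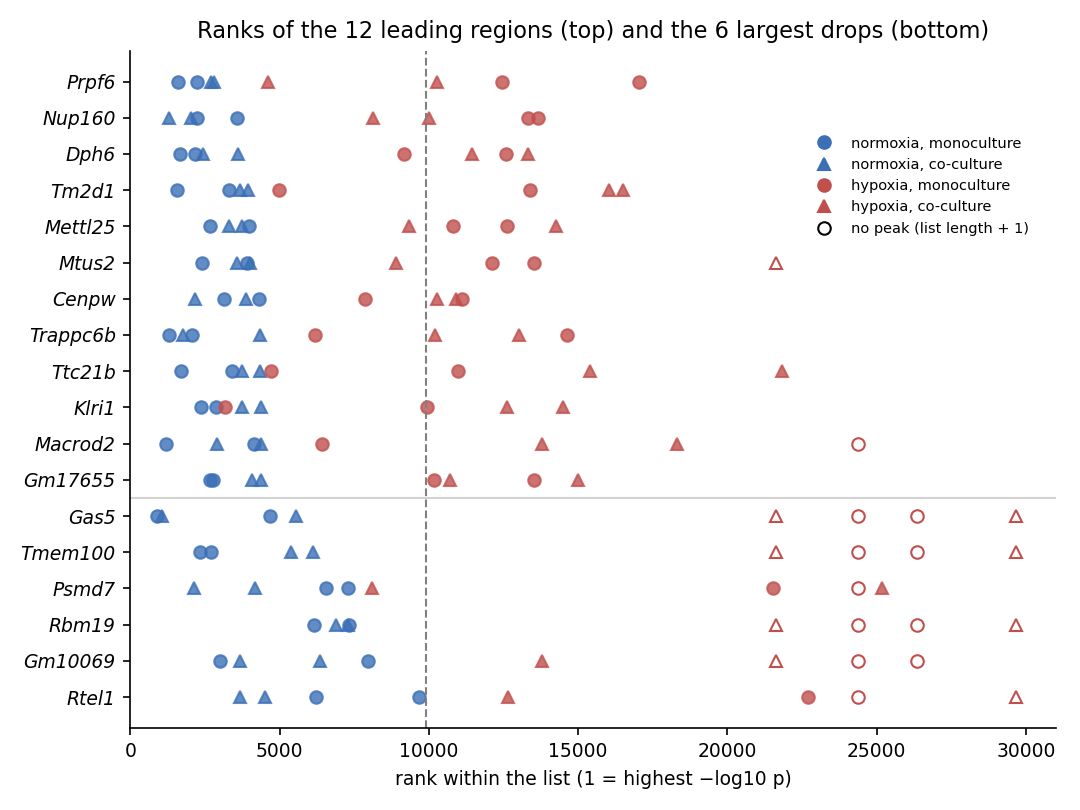
Ranks (horizontal axis, 1 at the left) of the 12 leading regions and of the 6 regions with the largest drop, in all 8 lists, by culture (circles and triangles) and oxygen (blue and red). Open symbols stand for lists without a peak, placed just past the end of the list, and the dashed line is rank 9910; the Gas5, Tmem100 and Rbm19 regions have 4 open symbols each.

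The largest drops belonged to regions that left the hypoxic lists altogether. A list without a peak was given the rank just past its end, so a missing peak enlarges the drop by construction. The region 681 bp past the 3′ end of Gas5, a long non-coding RNA gene that hosts snoRNAs (chromosome 1, 161039220 to 161040514), ranked 4676 and 904 in monoculture normoxia and 1064 and 5539 in co-culture normoxia, with no peak in any hypoxic list. A region 379 bp from an end of Tmem100 ranked 2338, 2701, 5367 and 6126 in normoxia, and one inside Rbm19, whose product takes part in ribosome assembly, 7318, 6142, 7306 and 6902. Neither had a hypoxic peak. These 3 are all the regions without any hypoxic peak.

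A further 4 regions kept a peak in a single hypoxic list. They lay 294 bp from an end of Rpl3, which encodes a protein of the large ribosomal subunit, and inside Gm10069, Fam160a2 and Ndst3. Rpl3 ranked 9457, 6810, 7417 and 8544 in normoxia and 26997 in co-culture hypoxia replicate 1. Fam160a2 was of another kind: its single hypoxic peak ranked 2923 in monoculture hypoxia replicate 2, close to the best normoxic rank of 2853. Among regions that kept more peaks, the largest drops were at Psmd7, which encodes a subunit of the proteasome lid, and at Rtel1, a DNA helicase needed for telomeres. Psmd7 had no peak in monoculture hypoxia replicate 1, ranked 21516 and 25181 in 2 lists and 8107 in co-culture hypoxia replicate 2, against 2135 to 7293 in normoxia. Rtel1 had no peak in 2 hypoxic lists and ranked 22706 and 12666 in the others, against 3687 to 9669 in normoxia.

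Just inside the limit were regions at an end of Cdyl2 and inside Bcl2l1 and Ppp2r3a, with worst normoxic ranks of 9903, 9908 and 9910. Just outside were regions near Rpl29-ps2, at an end of Rbbp6 and near Gm6717, whose worst normoxic ranks were 9912, 9923 and 9929.

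Of the 444, 278 (62.6%) lay within 1 kb of an end of an annotated gene, 108 (24.3%) elsewhere inside a gene and 58 (13.1%) between genes. Among stable regions these shares were 63.9%, 23.1% and 13.0%, and among the 1188 regions with a top peak in all 4 normoxic lists and 2 or 3 hypoxic lists they were 51.4%, 30.6% and 17.9%. The 459 regions of the exchanged rule were placed differently, with 19.6% at gene ends, 51.4% inside genes and 29.0% between genes, and all 40770 regions gave 30.6%, 42.6% and 26.8%. A start site lay inside 50.2% of the 444, 53.2% of stable regions, 40.7% of those 1188 regions, 10.9% of the exchanged set and 19.9% of all regions. The share at gene ends was thus near that of stable regions and above those of the other sets, with no test. The share at gene ends was 49.3% and 48.6% when monoculture hypoxia replicate 1 or 2 was left out, and 68.7% without co-culture hypoxia replicate 2.

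**Figure D3:**
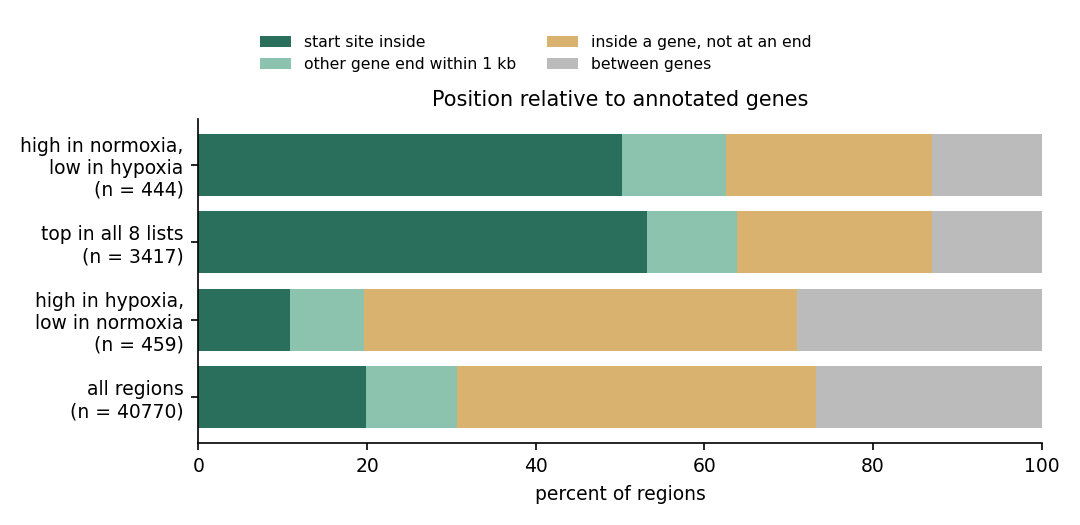
Percent of regions (horizontal axis) with a start site inside, with another gene end within 1 kb, elsewhere inside a gene and between genes, for the 444 regions, the 3417 stable regions, the 459 regions of the exchanged rule and all 40770 regions. The upper 2 bars are alike, with 50.2% and 53.2% holding a start, and the third holds a start in 10.9%.

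The regions were spread over the genome. Their share of the regions in the top of all 4 normoxic lists ranged from 5.33% on chromosome 3 to 12.7% on chromosome 13, and was 10.3% on the X chromosome. The median region was 1024 bp wide, against 980 bp for stable regions, and 3 were wider than 10 kb. Starts on both strands lay inside 44 of the 223 regions with a start (19.7%), against 22.8% of stable ones. The named start lay a median of 60 bp from the summits, against 91.5 bp.

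The promoters of these regions differed from stable promoters in their motifs. For each of the 223 regions with a start, the start nearest to the summits was used, with the 250 bases before it and the 50 after. The ETS motif CCGGAAG was found in 35.0% of them, against 19.2% of 1818 stable promoters, 21.7% of promoters in the top of all 4 normoxic lists and 8.92% of all 32619 promoters in the table. The CCAAT box showed the opposite: 29.1% against 55.1% of stable promoters, with 49.8% in the normoxic top and 37.6% in the table. The GC box GGGCGG of SP and KLF factors was in 60.1% against 75.0%, with 72.3% and 35.9% in the same order. The cAMP response element, bound by CREB and ATF factors, was rare but in 6.73% against 3.36%, with 3.60% in the normoxic top and 1.80% in the table. A match is a description of letters and not of a bound factor.

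Rarer motifs differed by fewer percentage points. The PU.1 motif was in 6.28% against 3.63% of stable promoters, the IRF motif in 5.38% against 2.48% and the C/EBP motif TTGCNNCAA in 2.24% against 1.16%; as ratios these are of the size of the ETS and CCAAT contrasts, over few promoters. The hypoxia response cores ACGTG (29.6% against 29.8%) and GCGTG (57.8% against 58.5%) were of close frequency in both sets, as were the E-box CACGTG, which contains ACGTG (9.42% against 9.85%), and the NRF1 motif (10.8% against 10.5%). The AP-1 motif TGANTCA was in 3.14% against 5.01%, and the RUNX motif TGTGGT in 9.42% against 12.5%. The other 4 of the 17 motifs searched, YY1 (AANATGGCG), CTCF, E2F (TTTGGCGC) and ZBTB33, were each in under 5% of promoters of both sets except YY1 in stable promoters (5.45%). Mean GC content was 59.9% ± 8.61 (SD, 223 promoters) against 61.7% ± 8.12 (SD, 1818 promoters), and CpG counts were 22.1 and 22.8 per 300 bases.

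Most of the ETS promoters lacked a CCAAT box. Of the 223, 62 (27.8%) held only the ETS motif of the pair, 49 (22.0%) only the CCAAT box, 16 (7.17%) both and 96 (43.0%) neither. In stable promoters the first 2 shares were 9.96% and 45.8%. The ETS motif was also close to the start: in the 50 bases before it, 18.4% of the 223 promoters held one, against 6.38% of stable promoters, while from 250 to 200 bases before it the shares were 2.69% and 1.54%. The printed Trappc6b, Dzip3 and Rbm34 promoters have it in that last stretch, and Pyroxd1 has 3 copies, with a CCAAT box as well. They were printed for a motif near the start, so they are examples only.

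The shares differed with the number of hypoxic lists that kept a region in their top, in 1 direction from 1 list to 4 for these 3 motifs. Among promoters in the top of all 4 normoxic lists, the ETS motif was in 32.9%, 36.2%, 29.0%, 21.3% and 19.2% of those kept by 0, 1, 2, 3 and 4 hypoxic lists. The CCAAT box was in 34.1%, 26.2%, 34.4%, 43.7% and 55.1%, and the GC box in 56.1%, 62.4%, 67.0%, 68.8% and 75.0%.

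**Figure D4:**
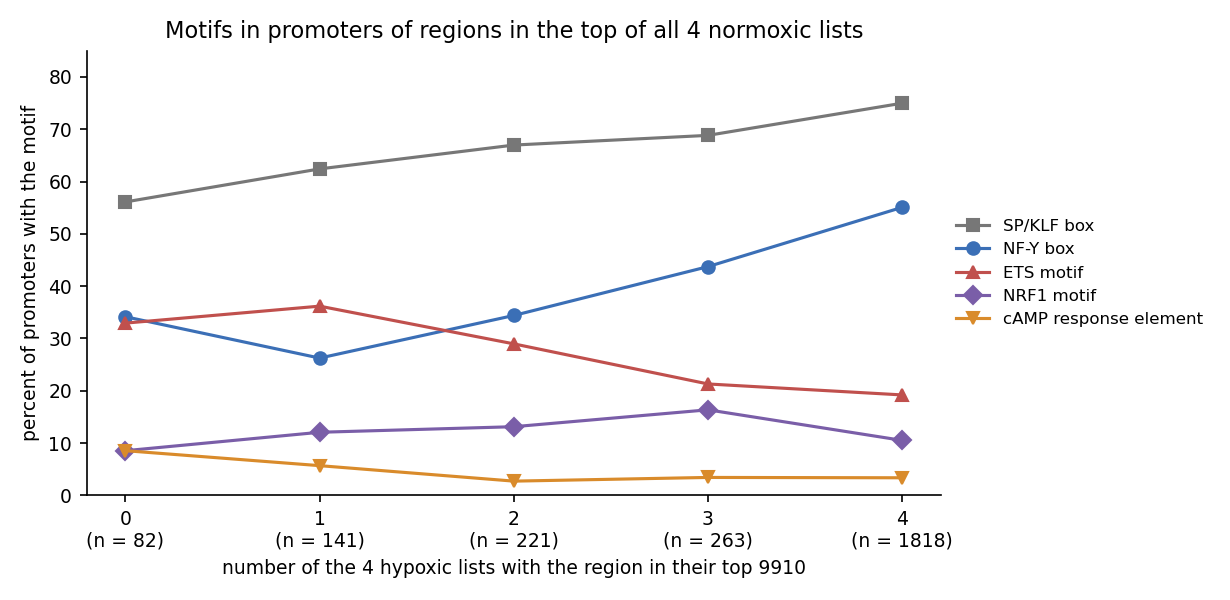
Percent of promoters with each of 5 motifs (vertical axis), for promoters in the top of all 4 normoxic lists, by the number of hypoxic lists that keep the region in their top (horizontal axis, number of promoters in brackets). The ETS line runs from 32.9% to 19.2% and the NF-Y (CCAAT) line from 34.1% to 55.1%.

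The 78 regions with an ETS promoter and the 145 with a start but no ETS motif differed by culture in their ranks. The medians were 6518 and 5313 against 6789 and 5060 in monoculture normoxia, and 6288 and 4680.5 against 6990 and 5329 in co-culture normoxia. In hypoxia they were 16236 and 15695 against 13952 and 13368 in monoculture, and 13761 and 10269 against 14240 and 11394 in co-culture. ETS promoters were thus placed higher in all 4 co-culture lists, at both oxygen levels, lower in both hypoxic monoculture lists, and higher in 1 and lower in the other normoxic monoculture list. Of the ETS promoters, 6.41% and 5.13% were in the top in monoculture hypoxia and 7.69% and 46.2% in co-culture hypoxia, against 12.4%, 10.3%, 4.83% and 34.5% of the others.

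Stable promoters rank higher in normoxia, so the sets were also compared within bands of rank. Where the worst normoxic rank was 6000 or better, the ETS motif was in 52.9% of 34 promoters against 19.3% of 1536 stable ones, and the CCAAT box in 32.4% against 56.5%. From 6001 to 8000 the ETS shares were 34.7% (72 promoters) and 17.6% (204), and the CCAAT shares 20.8% and 45.6%. From 8001 to 9910 they were 29.9% (117) and 20.5% (78), and 33.3% and 51.3%. The first band was not matched in rank, with a median worst rank of 5038 against 2318.5 in stable promoters, and it was split further after the values were seen. From 4001 to 5000, where the medians were 4614 and 4477, the ETS motif was in 46.2% of 13 promoters against 15.7% of 178 stable ones, but the CCAAT box was in 61.5% against 48.9%. From 5001 to 6000, with medians of 5501 and 5469, the ETS shares were 55.6% (18 promoters) and 19.6% (168), and the CCAAT shares 16.7% and 47.0%. Below 4001 there were 3 promoters. The ETS difference thus had 1 direction in all bands, and the CCAAT difference turned around in the band from 4001 to 5000, over 13 promoters. Both differences kept their direction in promoters with under 60% GC (ETS 28.2% against 16.5%, CCAAT 36.4% against 61.2%) and in those with more (41.6% against 20.9%, and 22.1% against 51.1%).

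**Figure D5:**
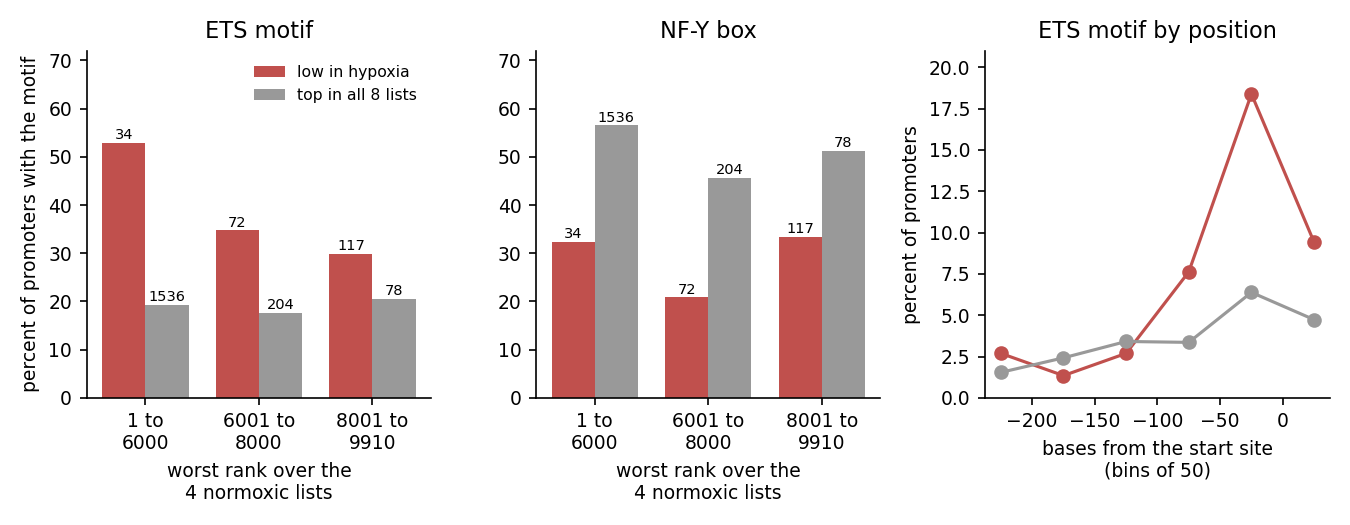
Left and middle, percent of promoters with the ETS motif and with the NF-Y (CCAAT) box, by the worst rank over the normoxic lists. Red bars are the regions ranked low in hypoxia and grey bars the stable regions, with the number of promoters over each bar. Ranks within the first band are not matched between the sets. Right, percent of promoters with an ETS motif starting in each 50-base bin around the start site, which reaches 18.4% in the red set and 6.38% in the grey one just before the start.

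The motif contrast had the same direction in a largely different set of regions. With the top 5000 peaks of each list in place of 9910, the rule gave 279 regions, and only 30 of the 444 overlapped one of them. Their promoters held the ETS motif in 31.7% and the CCAAT box in 31.1%, against 19.1% and 60.6% of stable promoters under that setting. Without each library in turn, the ETS difference ranged from 10.6 to 15.9 percentage points and the CCAAT difference from −26.4 to −21.4. Each of those sets took in at least 443 of the 444 regions, so much of the same promoters is counted again. Ranking peaks by fold enrichment gave an ETS difference of 8.97 points (29.0% against 20.0%), and the top 50% of each list 6.03 points, over 27 promoters. Promoters are not replicates, so no test was made.

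The gene lists are short and do not cover whole pathways, so a gene of the same role can hold one of the regions and stand in no list. Prpf6 and Snrpb2 (splicing) and Rps7, Rpl30 and Rack1 (ribosome), found after the values were seen, are examples. Of all annotated genes, 4394 had a region in the top of all 4 normoxic lists at an end, and 400 of those (9.10%) had one of the 444. Of 42 genes of the HIF pathway and its targets, 11 had such a normoxic region, among them Slc2a1, Eno1, Pkm and Bnip3, and 0 of the 11 had one of the 444, a count too small to set apart from the 9.10% over all genes. The same count was 0 of 10 for the splicing list, 0 of 10 for the unfolded protein and heat shock response and 0 of 1 for AP-1 factors.

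Cell cycle and DNA replication genes gave 3 of 26. Mki67, the proliferation antigen, ranked 6047, 7764, 7136 and 5204 in normoxia and 9986, 13586, 8023 and 10133 in hypoxia. The region of Plk1, a mitotic kinase, ranked 9120, 8177, 4908 and 5977 in normoxia, 21174 and 15819 in monoculture hypoxia, and 18818 and 6705 in co-culture hypoxia. Rrm2, a subunit of ribonucleotide reductase, had normoxic ranks from 4978 to 9528 and hypoxic ones from 7788 to 16740. The ranks of Mki67 did not overlap between oxygen levels, whereas Plk1 and Rrm2 each had 1 hypoxic rank within the normoxic range. The other 23 genes with a normoxic region, Pcna, Cdk1 and Mcm3 to Mcm7 among them, had none of the 444.

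Of 30 identity genes of microglia and macrophages, 3 had a normoxic region and 2 had one of the 444. At the start of Ptprc, which encodes the sorting marker CD45 (chromosome 1, 138174028 to 138175710), ranks were 6744 and 8343 in monoculture normoxia, 7079 and 7943 in co-culture normoxia, 15165 and 12728 in monoculture hypoxia and 9838 and 11023 in co-culture hypoxia. No normoxic rank overlapped a hypoxic one. The other, at an end of the Fc receptor gene Fcgr3, was 16347 bp wide and also covered a cluster of tRNA genes, so its peaks cannot be given to Fcgr3.

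Interferon and inflammatory genes gave 2 of 10. The region at Tlr4, the receptor for lipopolysaccharide, ranked 5350, 2179, 3913 and 4989 in normoxia, 10454 and 4924 in monoculture hypoxia, and 10422 and 12271 in co-culture hypoxia. Its rank of 4924 in monoculture hypoxia replicate 2 lay within the normoxic range. That of the interferon-induced gene Ifit2 ranked from 5302 to 8817 in normoxia and from 12231 to 15779 in hypoxia, with no overlap. Stat3, Ifnar1, Relb, Rel, Myd88 and the chemokine genes Ccl2, Ccl3 and Ccl4 had normoxic regions but none of the 444.

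Genes of respiration gave 1 of 13, ribosome biogenesis and translation 2 of 16 and chromatin modifiers 1 of 10. The first was the start shared by Sdhd, a subunit of succinate dehydrogenase, and Timm8b, a mitochondrial import factor, with normoxic ranks from 4648 to 7738 and hypoxic ranks of 17493, 10190, 9988 and 8706. The translation genes of the list were Gas5 and Rpl3, given above. Kdm5a, an oxygen-dependent histone demethylase, shared its region with Ccdc77, whose start lay inside it. That region ranked from 5614 to 9148 in normoxia and 18039, 25024, 9827 and 14195 in hypoxia. Apart from the microglial list, where 3 genes could count, and the interferon list, no list exceeded 12.5%.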

How the data were processed

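ATAC-seq peaks of 8 BV2 libraries were used, 2 replicates in each of 4 groups. Each library has its own list of called peaks, as the authors deposited it. Per the submitters' processing notes, the build was mm10 and the tools were Trimmomatic 0.36, HISAT2 2.1.0, Picard, SAMtools, deepTools and MACS2 2.1.1.2, with settings not given in the sources used here. The deposited fold is a ratio of a summit to the library's own background, and the deposited −log10 p and −log10 q are from the same caller, with −log10 q above 2 in every list. The deposited score repeats −log10 q (multiplied by 10, decimals dropped), and another deposited column gives the summit. All of these are the authors' values. The −log10 p ranked peaks within a list, the fold and −log10 q served alternative rankings and a filter, and the summit placed windows and chose the start of a region. Fold medians are given beside those of the whole list.

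Regions were merged peaks (at least 1 bp of overlap), ranks were by −log10 p, and ties kept file order. An equal number per list lets a region leave the top when others enter it. Genes (49554 on the chromosomes used) and promoters (32619, from 250 bases before to 50 after a start) were taken from RefSeq tables of GRCm38.p6, the patched form of mm10. No genome sequence was used, so distal regions have no sequence here, exons and introns were not told apart, and the planned 200 and 500 bp sequence windows were not run. A promoter belonged to a region when its start lay inside.

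The regions and the gene lists were chosen with earlier results of these data known. Named regions are the 12 with the best worst normoxic rank, the 6 with the largest drop in median rank, up to 4 at list genes per list, and 3 on either side of the limit. No test was made: the rule used the ranks, and regions are not replicates. The rule and the motif search were tested on simulated data. Python 3.11.15, numpy 2.4.6, pandas 2.3.3, scipy 1.17.1 and matplotlib 3.10.9 were used.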

Additional observations from a re-analysis of the deposited data

How the results depend on the processing

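The number of regions was 279 with the top 5000 peaks of each list, 58 with the top 50% of each list, 241 when a top peak had to cover 50% of its region, 178 when no hypoxic list was allowed and 979 when 2 were, and from 585 to 771 without 1 library. The exchanged rule gave 168, 958, 600, 212 and 899 in the same order, and from 551 to 787. Dropping a library or allowing more lists loosens the rule by construction. For the other settings of the count (fold ranking, the top 7500, summit windows, no peaks over 10 kb, −log10 q of at least 5) it stayed between 384 and 466, but only 190 of the 444 regions overlapped one found with fold ranking and 168 one found with the top 7500.

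The share at gene ends was 74.9% with the top 5000, 53.4% with the top 50%, 53.9% with 50% cover, 55.4% with 2 hypoxic lists allowed and 74.1% with ends within 5 kb, and from 48.6% to 68.7% without 1 library. The share with a peak in every hypoxic list was 88.8% with fold ranking and 88.8% with the top 7500, 95.3%, 65.5% and 79.0% with the top 5000, the top 50% and summit windows, and from 76.9% to 92.0% without 1 library. The share without any hypoxic peak was 0 with the top 5000 and 3.45% with the top 50%. The ETS difference was 8.97 points with fold ranking and 6.03 with the top 50%, where the CCAAT difference was −14.0. In the band of worst normoxic rank from 4001 to 5000 the CCAAT difference was reversed (61.5% of 13 promoters against 48.9%). These motif settings were chosen after seeing the data. The cause of these shifts was not tested. No paired analysis was possible because no result here comes from a test, since the ranks of all 8 libraries chose the regions. Depth is unknown, so a region without a peak is one not called, not one shown to be closed.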

Other observations

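Histone genes, picked by symbol after the values were seen, had a region in the top of all 4 normoxic lists at an end of 49 genes, and 8 of the 49 (16.3%) had one of the 444, against 9.10% of all genes. They were H1f2, H1f3, H2ac4, H2ac10, H2bc6, H3c2, H3c8 and H4c4, which encode linker and core histones made in S phase. The 8 genes lie together on chromosome 13 and 6 of them share a region with another, so they are not independent. Zinc finger genes named Zfp gave 10 of 123 (8.13%).

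At a 3′ end, with no start within 1 kb, lay 10 of the 444 regions (2.25%), against 1.90% of stable regions and 2.61% of the exchanged set, so the Gas5 region was of a rare kind in each. Hairpins of 2 microRNAs, Mir6546 and Mir7075, lay within 1 kb of one of the 444. The 254 regions in the top of all 4 monoculture lists and of at most 1 co-culture list shared none of the 444, which must hold a top peak in both co-culture normoxia lists.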
